A study of Mus musculus with 8 samples.

Results

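The DNA replication and mitosis genes are 42 genes taken by name, of which 17 act in DNA replication or its control and 25 act in mitosis. The list takes them by name and was drawn up with earlier results of these data known. Values of these arrays then entered through a filter on signal, which all 42 passed, and through the choice of a probe for each gene. All 42 had a probe on the array, with 68 probes in all, and all 42 were among the 18503 genes tested. A gene entered the test if the scanner software called 1 of its probes well above background on 4 or more of the 8 arrays. At the probe used, every one of the 42 was well above background on all 8 arrays.

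The tissue was dorsal pancreatic epithelium dissected from e12.5 mouse embryos, and each sample pooled 3 of them. The mutant group held 4 samples with Sox9fl/fl alleles and the Pdx1-Cre transgene, which makes Cre recombinase under the Pdx1 promoter of the pancreatic epithelium. The wild-type group held 4 samples with the same Sox9fl/fl alleles and no Cre, so the effect of Cre itself and that of losing Sox9 cannot be told apart. The floxed line was on a mixed FVB/N and C57Bl/6J background and the Cre line on C57Bl/6J. Per the labels each RNA sample was a pool of its own, while the series text speaks of fewer biological replicates than 4, so p-values measure only the spread between these samples, some of which may be technical. The comparison asks what changes in the early pancreas when Sox9, a transcription factor of its progenitor cells, is lost.

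A signal is given here as log2 of the scanner's processed signal minus the log2 of that array's 75th percentile, so that 0 is the 75th percentile of the array. Differences are mutant minus wild-type on that scale and come from two-sided tests in limma, with p-values adjusted over all 18503 genes by the Benjamini-Hochberg method and a threshold of 0.05. Sox9, the targeted gene, was lower by 2.70 on the log2 scale in the mutant samples (difference -2.70, SE 0.517, adjusted p = 0.0252 in limma), and the groups did not overlap. Sox9 passed the threshold in 14 of 22 other ways of processing the arrays. Markers of epithelium were well above background, as were markers of mesenchyme, endothelium, macrophages and red blood cells. In these bulk samples, fewer cells of a type and less RNA per cell cannot be told apart. The 2 arrays of lowest signal were wild-type replicate 1 and mutant replicate 3, whose 75th percentiles were 372 and 413 intensity units against 522 to 641 on the other 6. These 2 arrays stood apart in many of the genes below. For members given by sample, differences without 1 or both of them, or the range with single arrays left out, are given. This was done where leaving them out turned the sign or moved the value by over 1.5 times. Most other members are given by their difference over all 8 arrays only, and the sign of some of these turned without 1 of the 2.

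Before a cell copies its DNA, the ORC, Cdc6 and Cdt1 proteins load the Mcm helicase onto replication origins, and cyclin E with Cdk2 then starts S phase. Cyclin A and cyclin B with Cdk1 drive mitosis, in which kinases, motor proteins and centromere proteins divide the chromosomes. Transcription of the replication genes rises at the start of S phase under E2F factors. The mitosis genes rise later, through the MuvB complex with B-Myb and FoxM1, which acts at the cell cycle genes homology region (CHR), and through NF-Y, which binds the CCAAT box. In the early pancreas, progenitors of the epithelium divide as the organ grows.

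The promoters of 6 members show these motifs and are printed to let the letters behind both programmes be seen. They are RefSeq promoter sequences on GRCm38.p6, on the strand of the gene and 5′ to 3′, and each is the stretch from 10 bases before the first match to 10 bases after the last. Each ends at most 7 bases past the annotated start. Capitals mark the matches to any of the motifs searched, on either strand. Mcm6 and Cdc6 are replication genes (chr1:128359705-128359825, minus strand, and chr11:98908003-98908030, plus strand). Ccnb1 (chr13:100786513-100786595, minus strand), Cdc20 (chr4:118437337-118437406, minus strand), Mki67 (chr7:135716462-135716577, minus strand) and Cdk1 (chr10:69352912-69353130, minus strand) are mitosis genes.
Mcm6: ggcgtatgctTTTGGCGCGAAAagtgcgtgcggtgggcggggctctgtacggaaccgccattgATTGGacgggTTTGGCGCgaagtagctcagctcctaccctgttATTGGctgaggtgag
Cdc6: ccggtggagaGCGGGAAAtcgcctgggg
Ccnb1: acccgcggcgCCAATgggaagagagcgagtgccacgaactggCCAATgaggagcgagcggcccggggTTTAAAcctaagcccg
Cdc20: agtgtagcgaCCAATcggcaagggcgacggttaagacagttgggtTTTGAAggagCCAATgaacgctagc
Mki67: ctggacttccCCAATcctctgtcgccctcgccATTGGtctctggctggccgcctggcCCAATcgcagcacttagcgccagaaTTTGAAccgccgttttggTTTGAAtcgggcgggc
Cdk1: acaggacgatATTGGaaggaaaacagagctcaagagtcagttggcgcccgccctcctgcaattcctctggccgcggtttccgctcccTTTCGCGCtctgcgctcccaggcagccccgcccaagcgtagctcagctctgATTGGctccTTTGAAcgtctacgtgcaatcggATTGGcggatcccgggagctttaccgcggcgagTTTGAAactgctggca

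Each promoter window ran from 250 bases before to 50 bases after a gene's start. The table held a window for 34 of the 42 members, 14 replication and 20 mitosis genes, and the 8 without one were Ccna2, Aurkb, Mcm4, Ccne2, Foxm1, Kif20a, Gmnn and Tpx2. The E2F words were TTTGGCGC, TTTCCCGC, TTTCGCGC and TTTGCCGC, the CHR words TTTGAA and TTTAAA, and the CCAAT box CCAAT, each on both strands. E2F words lay in the windows of 6 of the 14 replication genes (Cdc6, Cdt1, Mcm3, Mcm5, Mcm6 and Mcm7) and of 1 of the 20 mitosis genes (Cdk1). Among all 27025 genes with a window, 2.61% held one. CHR words lay in 17 of the 20 mitosis genes and 4 of the 14 replication genes, beside 30.6% of all genes. The CCAAT box was in 18 of the 20 mitosis genes and 8 of the 14 replication genes, beside 41.1% of all genes. Both a CHR word and a CCAAT box were in 16 of the 20 mitosis genes, 3 of the 14 replication genes and 12.2% of all genes. The words can share letters: the first capital run of Mcm6 holds overlapping E2F matches on both strands, and matches to different motifs shared letters in Mcm7 (E2F and CCAAT) and Cdca8 (CHR and CCAAT). A match describes the letters of a window only, and the arrays measured no binding.

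**Figure D1:**
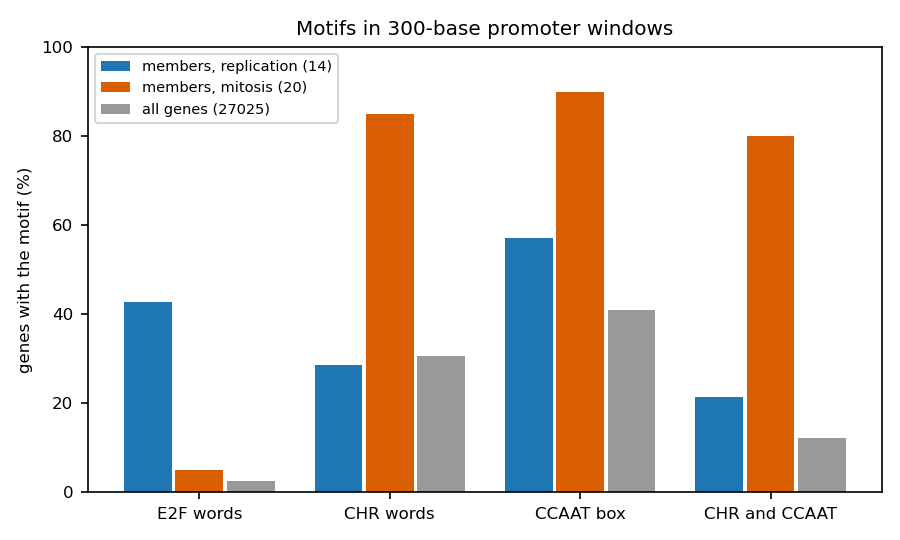
Share of genes (y axis, percent) whose RefSeq promoter window holds each motif (x axis), for 14 replication members, 20 mitosis members and all 27025 genes with a window. E2F words lay in 42.9% of replication and 5% of mitosis members, and CHR words with a CCAAT box in 21.4% and 80%.

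No replication or mitosis gene passed the threshold between Sox9 mutant and wild-type samples. Of the 42 members 0 were called, where 5.37% of all genes tested were (1.55% higher and 3.82% lower in the mutant), and for 0 of the 42 did the groups fail to overlap, which they did for 15.2% of all genes. The lowest adjusted p was 0.254 in limma, and 1 member (Nek2) had an unadjusted p under 0.05, beside 18.8% of all genes. The log2 differences ran from -0.33 (Ccne2) to 0.18 (Cenpa), and the largest in size stood for 1.25-fold, a size that 69.1% of all genes did not exceed. Their median was -0.056, with 25 below and 17 above 0, beside a median of 0.016 over all genes, of which 47.1% were below 0. Leaving out 1 array moved the members' median from -0.011 (without mutant replicate 1, 21 below 0) to -0.10 (without mutant replicate 3, 33 below 0), and its distance from the median of all genes from -0.023 to -0.12. The 17 replication genes had a median of 0.008 (8 below, 9 above) and the 25 mitosis genes one of -0.073 (17 below, 8 above). With each array scaled to its median in place of its 75th percentile, the median over all genes was 0.155 and that of the members 0.082, so the sign of the members' median turned while its distance from all genes stayed at -0.072.

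A p above the threshold does not show that the levels were equal. The 95% intervals give the sizes these arrays leave possible at the probe used for each gene. For 23 of the 42 members the interval lay within 0.5 of 0 on the log2 scale on either side, and for all 42 within 1. The outermost bounds, -0.78 and 0.85, both belonged to Ttk, and stand for 1.71-fold lower and 1.81-fold higher. Dimmer probes of Kif11 (-0.63, SE 0.203), Ccne2 (-0.44, SE 0.154), Tyms (-0.41, SE 0.383) and Cenpe (-0.39, SE 0.487) lay farther from 0 than any probe used. Their intervals are not counted here, so the bounds do not hold for every probe of a member. Of the 61 member probes kept, 0 passed the threshold. Over all genes tested, 4.76% had a difference of 1 or more in size. The interval reached 0.346 to either side of the difference at the median member and 0.413 at the median gene. The spread within a genotype (pooled SD) ran from 0.083 for Mcm5 to 0.571 for Ttk.

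**Figure D2:**
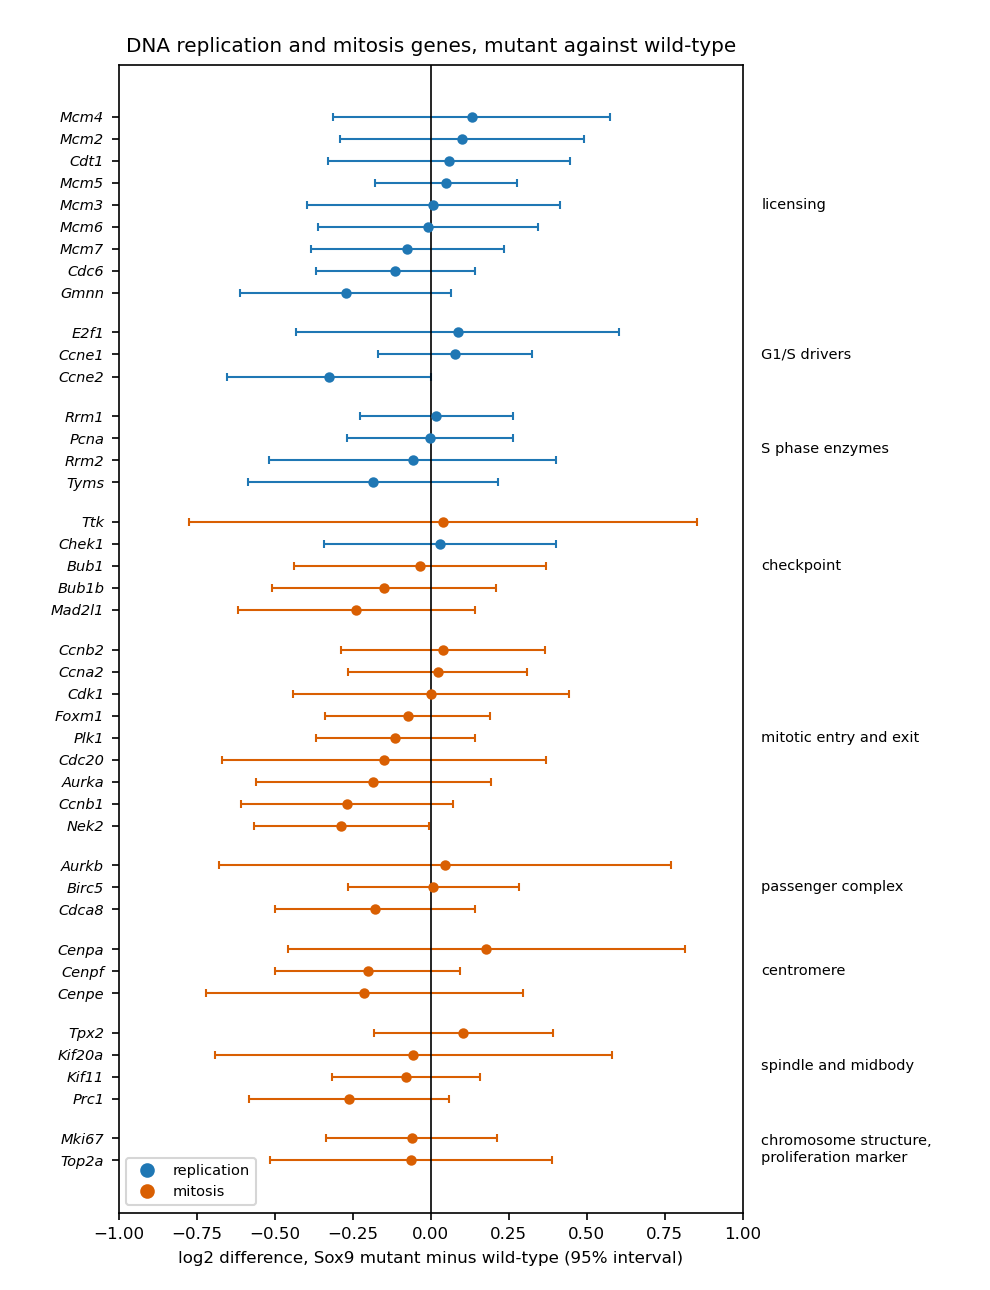
Log2 difference, mutant minus wild-type (x axis), of the 42 members with 95% intervals from limma (n = 4 per genotype), grouped by role and coloured by phase. Each gene is shown at the probe used. The intervals of 41 members hold 0, and the points lie between -0.33 and 0.18.

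Of the 9 licensing genes, which load or restrain the helicase, 0 passed the threshold, and the differences ran from -0.27 (Gmnn) to 0.13 (Mcm4). Gmnn encodes geminin, which holds Cdt1 back until mitosis ends. Its signals (probe at chr13:24759448-24759507, mm8, minus strand) were 5.27, 4.83, 4.91 and 4.81 in the wild-type samples and 4.52, 4.65, 4.95 and 4.63 in the mutant samples, in the order of their replicate numbers, as for every gene here. Of the 4 mutant samples, 3 lay under every wild-type sample, and mutant replicate 3 lay among them. The difference was -0.27 (SE 0.148, 95% interval -0.61 to 0.067, adjusted p = 0.393 in limma). It was -0.17 without wild-type replicate 1 and -0.25 without both arrays of lowest signal. When the 2 arrays of lowest signal were given a term of their own, its adjusted p was 0.0617 in limma, the lowest of any member under any processing tried.

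Mcm2, a subunit of the helicase, had signals of 3.05, 2.95, 2.87 and 2.68 in wild-type and 2.86, 2.79, 3.44 and 2.84 in mutant samples (chr6:88849266-88849325, mm8, minus strand). The groups overlapped, with mutant replicate 3 above all the others. The difference was 0.10 (SE 0.170, 95% interval -0.29 to 0.49, adjusted p = 0.867 in limma). It rested on that sample: without mutant replicate 3 the sign turned (-0.054), and without both arrays of lowest signal the difference was 0.00056. Without wild-type replicate 1 it was 0.15. The other helicase subunits, Mcm3 to Mcm7, lay between -0.075 (Mcm7) and 0.13 (Mcm4). Without mutant replicate 3 the sign of Mcm4 turned (-0.020). The loading factors Cdc6 and Cdt1 were at -0.11 and 0.060.

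Of the 3 G1/S drivers 0 passed the threshold, with Ccne2 at -0.33, the lowest of all members, Ccne1 at 0.077 and E2f1, a transcription factor of S phase genes, at 0.086. Ccne2 encodes cyclin E2, a partner of Cdk2 at the start of S phase. Its signals (chr4:11130171-11130230, mm8, plus strand) were -1.87, -2.03, -1.50 and -1.94 in wild-type and -2.32, -2.01, -2.22 and -2.10 in mutant samples. The lowest wild-type value, in replicate 2, was just under the highest mutant value, also in replicate 2, so the groups overlapped. The difference was -0.33 (SE 0.143, 95% interval -0.65 to 0.0021, adjusted p = 0.269 in limma), or 1.25-fold lower. It was -0.21 without wild-type replicate 3. Its other probe, at chr4:11130287, gave -0.44 (adjusted p over all probes = 0.180 in limma). Ccne2 was below 0 within each of the 3 slides (-0.19, -0.71 and -0.10).

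Among the 4 S phase enzymes, 0 passed the threshold. Pcna, the sliding clamp of DNA polymerase, was measured at chr2:131941125-131941262 (mm8, minus strand). Its signals were 4.62, 4.61, 4.35 and 4.66 in wild-type and 4.52, 4.72, 4.54 and 4.44 in mutant samples, and the groups lay over each other. The difference was -0.0019 (SE 0.115, 95% interval -0.27 to 0.26, adjusted p = 0.996 in limma), and its sign turned when single arrays were left out (from -0.071 to 0.037). Tyms, thymidylate synthase, which makes the thymidine nucleotide, had the largest difference of the 4. Its signals were 4.47, 4.08, 4.20 and 3.96 in wild-type and 3.78, 3.94, 4.41 and 3.85 in mutant samples (chr5:30391852-30391911, mm8, minus strand). The highest value of each genotype was on its array of lowest signal, and the difference was -0.18 (SE 0.174, adjusted p = 0.707 in limma). It was -0.087 without wild-type replicate 1, -0.32 without mutant replicate 3 and -0.22 without both. Rrm1 and Rrm2, the subunits of ribonucleotide reductase, were at 0.018 and -0.057.

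Mitotic entry and exit is covered by 9 members, of which 0 passed the threshold and 6 lay below 0. Nek2, a kinase that separates the centrosomes, had signals of 0.43, 0.27, 0.25 and 0.51 in wild-type and 0.041, 0.065, -0.088 and 0.30 in mutant samples (chr1:193533079-193533138, mm8, plus strand). All mutant samples but replicate 4 lay under the lowest wild-type sample. The difference was -0.29 (SE 0.122, 95% interval -0.57 to -0.0057, unadjusted p = 0.0464, adjusted p = 0.254 in limma), or 1.22-fold lower. Ccnb1, cyclin B1, had signals of 1.19, 1.36, 1.32 and 1.49 in wild-type and 0.95, 1.13, 0.81 and 1.40 in mutant samples (chr13:101879936-101879995, mm8, minus strand). Here too mutant replicate 4 alone reached into the wild-type range, and the difference was -0.27 (SE 0.148, 95% interval -0.61 to 0.070, adjusted p = 0.399 in limma). Its other probes, further towards the 3′ end, gave -0.18 and -0.086.

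Cdk1, the kinase that cyclin B1 activates, had signals of 2.77, 2.27, 2.00 and 2.30 in wild-type and 2.14, 2.23, 2.69 and 2.27 in mutant samples. Its probe (chr10:68738032-68740441, mm8, minus strand) has a listed position longer than the probe. Both genotypes had 1 sample well above the rest, wild-type replicate 1 and mutant replicate 3. The difference was 0.00067 (SE 0.192, 95% interval -0.44 to 0.44, adjusted p = 0.999 in limma), and it ran from -0.12 without mutant replicate 3 to 0.15 without wild-type replicate 1. The other members of the role were the cyclin genes Ccnb2 (0.040) and Ccna2 (0.023), the kinase genes Plk1 (-0.11) and Aurka (-0.18), Foxm1 (-0.073), which encodes the transcription factor of the mitosis genes, and Cdc20 (-0.15), an activator of the anaphase-promoting complex. Without wild-type replicate 1 the sign of Cdc20 turned (0.028).

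The 5 checkpoint genes ran from -0.24 (Mad2l1) to 0.039 (Ttk), with 0 past the threshold. Mad2l1 encodes the Mad2 protein, which halts anaphase until all chromosomes are attached. It had signals of 0.45, 0.77, 0.57 and 0.77 in wild-type and 0.44, 0.46, -0.0013 and 0.70 in mutant samples (chr6:66468570-66468629, mm8, plus strand). The mutant samples spread more widely, with replicate 3 lowest, and the difference was -0.24 (SE 0.166, 95% interval -0.62 to 0.14, adjusted p = 0.543 in limma). It was -0.10 without mutant replicate 3 and -0.17 without both arrays of lowest signal. Bub1b and Bub1, also of the spindle checkpoint, were at -0.15 and -0.034, and Chek1, a kinase of the replication checkpoint, at 0.029. Ttk (Mps1 kinase) varied most of all members, from -3.12 to -1.65, with its lowest value in wild-type replicate 1 and its highest in mutant replicate 1.

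Of the chromosomal passenger complex, which corrects chromosome attachment and acts again in cytokinesis, 3 members were measured and 0 passed. Cdca8 (borealin) had signals of 4.36, 4.66, 4.72 and 4.67 in wild-type and 4.38, 4.44, 4.19 and 4.68 in mutant samples (chr4:124420869-124420928, mm8, minus strand). Apart from wild-type replicate 1 and mutant replicate 4, the wild-type samples were above the mutant ones, and the difference was -0.18 (SE 0.140, 95% interval -0.50 to 0.14, adjusted p = 0.613 in limma). It was -0.10 without mutant replicate 3. Birc5 (survivin) was at 0.0084 and Aurkb, the kinase of the complex, at 0.046. Without mutant replicate 3 the sign of Aurkb turned (-0.22).

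Among the 3 centromere genes, Cenpe encodes a kinesin that moves chromosomes to the spindle equator. Its signals were 5.72, 4.92, 5.08 and 5.0 in wild-type and 4.77, 4.79, 5.43 and 4.87 in mutant samples (chr3:135210810-135210869, mm8, plus strand). The arrays of lowest signal again held the highest value of each genotype. The difference was -0.21 (SE 0.222, 95% interval -0.72 to 0.29, adjusted p = 0.741 in limma). It was -0.034 without wild-type replicate 1, -0.37 without mutant replicate 3 and -0.19 without both. Cenpf was at -0.20, and Cenpa, the centromeric histone, at 0.18, with a 95% interval of -0.46 to 0.82.

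Of the 4 spindle and midbody genes, Prc1, which bundles microtubules between the separating chromosomes, had the largest difference. Its signals were 4.05, 3.56, 3.68 and 3.71 in wild-type and 3.30, 3.43, 3.59 and 3.64 in mutant samples (chr7:80189665-80189717, mm8, plus strand). The groups overlapped through mutant replicates 3 and 4, and the difference was -0.26 (SE 0.140, 95% interval -0.58 to 0.058, adjusted p = 0.381 in limma). It was -0.16 without wild-type replicate 1 and -0.20 without both arrays of lowest signal. The kinesin genes Kif11 and Kif20a were at -0.079 and -0.055, and Tpx2, a spindle assembly factor, at 0.10. Without wild-type replicate 1 the sign of Kif20a turned (0.16). A dimmer probe of Kif11, well above background on 5 arrays, gave -0.63 (adjusted p over all probes = 0.145 in limma), the lowest adjusted p of the 61 member probes kept.

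Mki67, which encodes the proliferation marker Ki-67, and Top2a, the topoisomerase that untangles sister chromatids, were both close to 0 at the probes used. Their other probes, further towards the 5′ end, gave -0.18 for Mki67 (SE 0.225) and -0.086 for Top2a (SE 0.174). Mki67 had signals of 4.32, 4.58, 4.56 and 4.51 in wild-type and 4.53, 4.25, 4.36 and 4.59 in mutant samples (chr7:135528251-135528310, mm8, minus strand). The highest and the lowest of the 8 values were both in mutant samples. The difference was -0.061 (SE 0.120, 95% interval -0.34 to 0.21, adjusted p = 0.887 in limma), and it ran from -0.12 without wild-type replicate 1 to 0.00038 without mutant replicate 2. Top2a had signals of 1.09, 1.76, 1.53 and 1.52 in wild-type and 1.60, 1.23, 1.08 and 1.73 in mutant samples (chr11:98812020-98812834, mm8, minus strand). Both genotypes spanned about the same range, and the difference was -0.063 (SE 0.197, 95% interval -0.51 to 0.39, adjusted p = 0.934 in limma), and it ran from -0.19 without wild-type replicate 1 to 0.047 without mutant replicate 3.

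Within each genotype the members spread over the arrays in a shared pattern. For 36 of the 42 members the highest or the lowest of the 8 values lay on wild-type replicate 1 or mutant replicate 3, the arrays of lowest signal, and 36 members (85.7%) were off in the same direction on both, beside 61.7% of all genes. For 18 members (42.9%) these arrays held the 2 highest values, and for 7 (16.7%) the 2 lowest, beside 15.2% and 9.5% of all genes. These shares were not tested. Aurkb was higher on them than on the other arrays of its genotype by 0.92 on the log2 scale, Kif20a by 0.86, Cdc20 by 0.69 and Cenpe by 0.67. The shift was -0.89 for Ttk, -0.66 for E2f1 and -0.48 for Top2a. In all, 27 of the 42 members (64.3%) were higher on these arrays, beside 54.7% of all genes. A shift beyond 0.5 in size was seen in 19.0% of the members and 19.1% of all genes, and 85.7% of the members and 72.5% of all genes had their highest or lowest value on one of them. The part of low signal in these values was not tested.

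**Figure D3:**
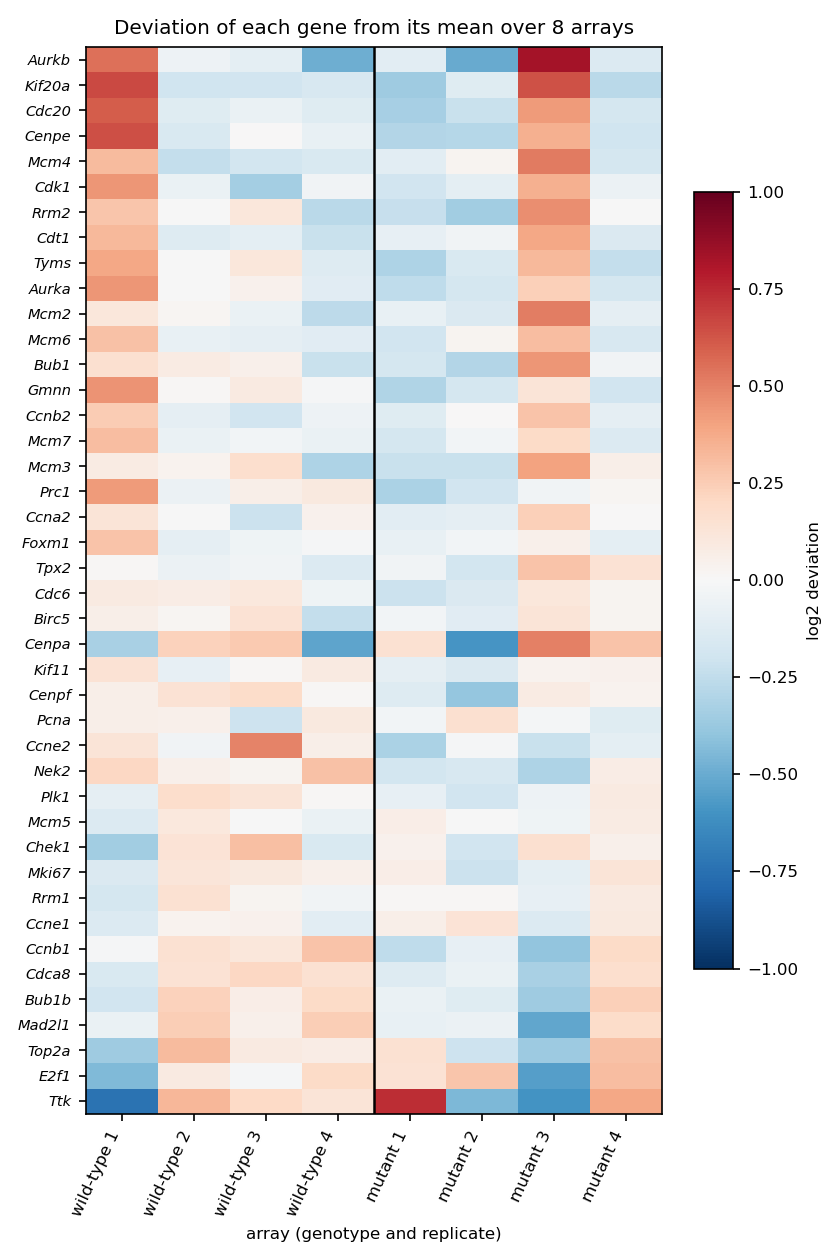
Deviation of each member's log2 signal from its mean over the 8 arrays (colour, log2 units), with members in rows ordered by their shift on the 2 arrays of lowest signal and arrays in columns. The median size of the deviation was 0.229 in wild-type replicate 1 and 0.310 in mutant replicate 3, beside 0.086 to 0.149 on the other arrays. The shift that orders the rows runs from 0.92 (Aurkb) to -0.89 (Ttk).

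The sign of the difference varied between the slides on which the arrays lay. On slide 1, where mutant replicate 3 was set against wild-type replicate 2, 26 of the 42 members were above 0. On slide 3, where mutant replicate 2 was set against the mean of wild-type replicates 1 and 4, 36 were below 0. On slide 2, where the mean of mutant replicates 1 and 4 was set against wild-type replicate 3, 27 were below 0. The sign was positive on slide 1 and negative on slide 3 for 25 members. None of the slide counts given here was taken over all genes, so whether they set the members apart cannot be told. Of the 27 members higher on the arrays of lowest signal, 25 were above 0 on slide 1 and 26 below 0 on slide 3, and of the 15 lower on them, 1 was above 0 on slide 1 and 10 below 0 on slide 3. Mutant replicate 3 enters the slide 1 difference and wild-type replicate 1 the slide 3 difference. Part of this match is therefore built in, and no conclusion is drawn from it. Within-slide values rest on 2 or 3 arrays, and the part of low signal in them was not tested. The sign was the same on all 3 slides for 6 members, all below 0: Ccne2, Nek2, Ccnb1, Cdca8, Cenpf and Plk1. Without wild-type replicate 1 and mutant replicate 3, 0 members passed the threshold, the median was -0.075 with 31 below 0, and the lowest adjusted p was 0.166 in limma (Gmnn).

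For 2 members, Cenpe and Mcm3, probes 1000 bases or more apart shifted in opposite directions on the low-signal arrays. The most 5′ probe of Cenpe (chr3:135155915-135156056, mm8) had signals of -2.37, -1.48, -1.72 and -1.39 in wild-type and -1.64, -1.77, -3.67 and -1.44 in mutant samples. It was lower by 1.45 on these arrays (shift -1.45), while the 3′ probe given above was higher by 0.67. The probes lie 54895 bases apart in the genome. Mcm3 showed the same order, with shifts of -0.57 at its 5′ probe (chr1:20790433-20790949, mm8) and 0.33 at its 3′ probe. The labelled RNA was made from an oligo-dT primer, per the labels, which starts copying at the 3′ end. Kept probes at different places formed a pair in 15 members. The shift of the 3′ probe was above that of the 5′ probe in 8 (53.3%), beside 69.6% of 6175 genes with such a pair. For probes 1000 bases or more apart this held in 4 of 7 members, beside 69.9% of genes. In the other 3 the shift of the 5′ probe was the higher: Top2a (-0.28, 3′ minus 5′), Kif11 (-0.25) and Cdca8 (-0.041). These compare shifts, and not the signals of the 2 probes. The part of RNA length or quality in these shifts was not tested.

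**Figure D4:**
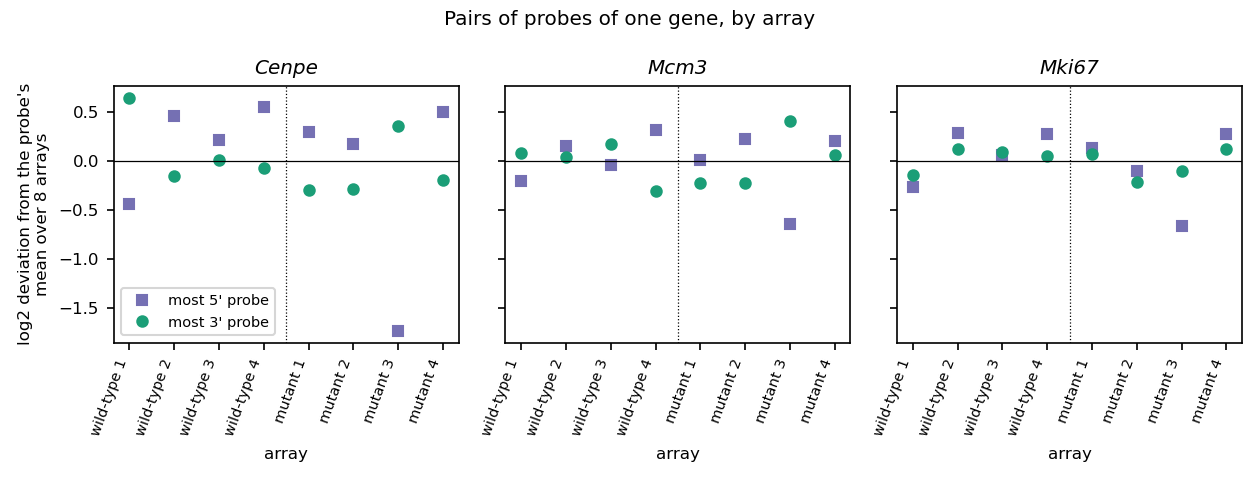
Deviation of the most 5′ probe (squares) and most 3′ probe (circles) from the probe's own mean over 8 arrays (y axis, log2 units), by array (x axis), for Cenpe, Mcm3 and Mki67. In mutant replicate 3 the 5′ probe lies under the 3′ probe for each gene, with a shift on the low-signal arrays of -1.45 against 0.67 for Cenpe. The genes shown have the largest 3′ minus 5′ shifts (2.12, 0.89 and 0.45) of the 15 members with a pair. That value was above 0 in 8 of the 15 and lowest for Cenpf (-0.66, probes 956 bases apart), which is not shown.

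The other genes of the pathway had differences of like size. Of 80 further replication and mitosis genes 78 were tested, 0 passed the threshold (limma; 2 had an unadjusted p under 0.05), and 52 lay below and 26 above 0, with a median of -0.051. The groups did not overlap for 2 of the 78, beside 15.2% of all genes. The differences ran from -0.26 to 0.17, the highest being that of Gins3, a subunit of the replicative helicase complex.

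Cell type markers had larger differences in the same samples. All 20 epithelial genes lay below 0 and 18 passed the threshold, with a median of -2.21 over the 20 (Cdh1 -2.51 and Epcam -2.12). Without the 2 arrays of lowest signal the epithelial median was -1.98 and 0 of 20 passed, so a count of 0 with those arrays left out tells little about the members either. The epithelial summed signal, in units of the array's 75th percentile, was 106 to 147 in wild-type and 37.5 to 60.0 in mutant samples. Of the markers of other cell types, all 11 mesenchymal, 10 endothelial and 10 macrophage genes lay above 0, with medians of 0.67, 0.47 and 0.64. Of these, 3 mesenchymal, 2 endothelial and 4 macrophage genes passed the threshold. The groups did not overlap for 10, 6 and 9 of them. The summed signals of the 3 lists were 309 to 391 against 443 to 593, 25.1 to 28.2 against 31.8 to 43.2, and 16.3 to 19.4 against 23.5 to 32.8, in wild-type and mutant samples. Of 8 nerve and neural crest genes 7 lay below 0, and 4 passed the threshold, all lower (summed signal 7.14 to 9.56 against 3.45 to 6.33). Of 10 red blood cell genes 8 lay above 0 and 0 passed (105 to 139 against 97.1 to 173). The summed signal of the 42 members was 622 to 796 in wild-type and 591 to 778 in mutant samples. Ret, of the nerve list, was not well above background on enough arrays to be tested. Embryo sex differed between pools as well: the Y-linked genes were low in wild-type replicates 1, 2 and 4 only, with Ddx3y at -6.85, -4.86, -0.82 and -7.44 in wild-type and between -1.37 and 0.11 in mutant samples. Replication and mitosis genes are read from every dividing cell type of the tissue, and the part of a changed mix of cells or of embryo sex in their values was not tested.

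**Figure D5:**
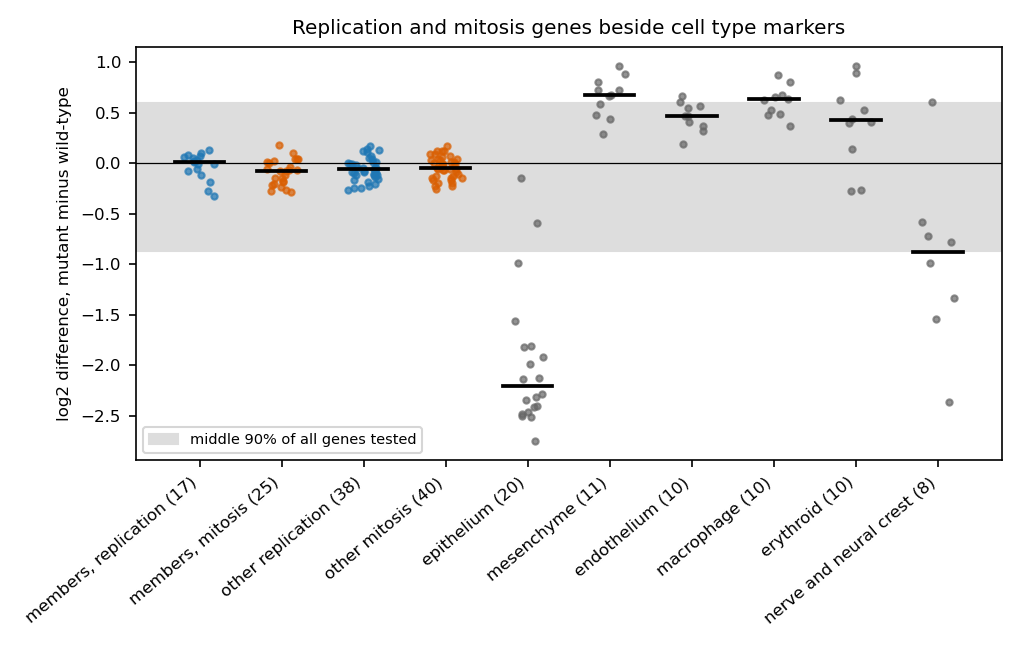
Log2 difference, mutant minus wild-type (y axis), of each gene (points) in the lists on the x axis with the number of genes tested, black lines for medians and a grey band for the middle 90% of all genes. Members and other pathway genes lie between -0.33 and 0.18, inside the band from -0.86 to 0.60, while the epithelial median is -2.21.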

How the data were processed

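The 42 members and every gene list were chosen with earlier results of these data known. The authors scanned the arrays with Agilent Feature Extraction 9.5.3.1, per the file headers, and the deposited processed signal is a linear intensity, background subtracted within the array, with no normalization between arrays. Other deposited columns used are the mean signal and local background (intensity) and quality flags. The authors' deposited matrix of values also holds intensities, with a median of 227 on every array, and served as an alternative; the submitters' processing notes name limma.

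Outlier spots and 1639 control spots of 45018 were left out, the 75th percentile was subtracted on the log2 scale, and spots of a probe were averaged. A gene is its probe of highest mean signal among 27386 kept of 41174. Genes were fitted with limma 3.58.1 (lmFit, eBayes; R 4.3.3, with the package data.table, version 1.17.8) without a slide term, tested on simulated data first. Python 3.11.15, pandas 2.3.3 and matplotlib 3.10.9 did the rest. Precision is limited by having 4 arrays of each genotype. Values by sample are given for the member with the largest difference in each role and for Mki67, Pcna, Mcm2, Cdk1 and Ccnb1, plus any member past the threshold or without overlap, of which there were 0. Gins3, the extremes on the low-signal arrays and the probe pairs were chosen after their values were seen. Probe positions are those the files list on mm8, and exons were not analysed here. Some genes of the other lists are not reported here by name.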

Additional observations from a re-analysis of the deposited data

Results flagged for a closer look

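Among 84 groups of 4 samples (42 members in 2 genotypes), 10 held a sample that stood apart from the other samples of its genotype by Dixon's test at the 95% level. Chance gives about 5% of such groups when values are normal. The members share the same arrays and vary together, so the groups are not independent. The share of all genes flagged by this rule was not counted, so the 10 are not read as particular to the members. Of the 10, 9 lay on wild-type replicate 1 or mutant replicate 3, the arrays of lowest signal. Wild-type replicate 1 was highest for the helicase genes Mcm4 (5.64), Mcm6 (6.72) and Mcm7 (5.41), for Cdc20 (6.30) and for Kif20a (5.55), and lowest for Cdca8 (4.36). Mutant replicate 3 was highest for Mcm2 (3.44), for the kinase gene Aurka (4.86) and for Cenpe (5.43). Away from these arrays, wild-type replicate 3 was lowest for Pcna (4.35). All are log2 signals relative to the array's 75th percentile, and no cause was tested.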

How the results depend on the processing

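Under 22 alternatives, 3 of them chosen after seeing the data, 0 of the 42 members and 0 of the 78 other pathway genes passed the threshold in limma. The lowest adjusted p of a member was 0.0617 (Gmnn, with a term for the 2 arrays of lowest signal, where 5 members had an unadjusted p under 0.05 beside 25.3% of all genes). Leaving out 1 array at a time, it was 0.168 or more. Of 308 values of the 14 members given by sample, 26 changed sign, and 9 members kept their sign throughout. With median scaling the median difference was 0.082 over the members and 0.087 over the other pathway genes. The count of all genes past the threshold, 994, was 584 with median scaling, 419 without the filter on dim probes, 1536 with slide as a random block (correlation 0.194), 1713 with array weights, 65 without the 2 arrays of lowest signal, 1657 with a term for them and 6 without wild-type replicate 3 and mutant replicate 1. Leaving out 1 array at a time gave 395 to 972, and the causes were not tested. With a replicate block it was 340; same-numbered samples do not deviate together (correlations -0.354, -0.294, -0.0050 and 0.0853), so the numbers give no paired design. Sox9 passed in 14 of the 22.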
